A study of Mus musculus with 14 samples.

Results

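The pore-forming alpha-1 subunits of the voltage-gated calcium channels were followed in 2 brain regions, cerebellum and striatum, of mice with a conditional knockout of Thap1 (cKO) and of wildtype (WT) mice. The family comprised 8 of the 23337 genes counted, namely Cacna1a (P/Q type), Cacna1b (N type), Cacna1e (R type), Cacna1c and Cacna1d (L type), and Cacna1g, Cacna1h and Cacna1i (T type). An earlier analysis of these counts had listed Cacna1i among the genes that fell in cKO cerebellum, and the family was taken to have been chosen from those counts, with the other 7 members added as relatives. The cerebellar values of Cacna1i, and every comparison of them with striatum, are therefore given as a description without a test. The values behind the choice are not recorded member by member, and if those of other members entered it, their cerebellar tests are not independent of it.

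RNA was sequenced from microdissected, flash-frozen tissue of C57Bl/6 mice that were 6 months old. The groups were cKO cerebellum (n = 4), WT cerebellum (n = 4), cKO striatum (n = 3) and WT striatum (n = 3), and the controls were littermates of the cKO mice. THAP1 is the zinc-finger transcription factor mutated in the dystonia DYT6. Not given in the sources used here are the Cre driver, the exons deleted, the number of animals behind a sample and any batches of library making.

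An alpha-1 subunit forms the voltage sensor and the calcium pore of a channel, and auxiliary beta and alpha-2-delta subunits bring most of these channels to the membrane. P/Q-, N- and R-type channels open at strong depolarisation and drive transmitter release, L-type channels couple activity to gene expression and pacemaking, and T-type channels open near the resting potential and support burst firing. In the cerebellum, P/Q-type current dominates in Purkinje cells, and mutations of the P/Q gene cause ataxia in mice and people. In bulk tissue, fewer cells of a type and less RNA per cell cannot be told apart.

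Expression is given as CPM, a gene's count relative to the library total scaled by TMM factors over all 14 libraries. Library totals ran from 19860775 to 28099205 counts in cKO cerebellum, 19458954 to 24331760 in WT cerebellum, 12659013 to 14258141 in cKO striatum and 12595941 to 13499875 in WT striatum. Thap1 averaged 6.98 ± 0.364 CPM in cKO cerebellum and 8.91 ± 1.20 CPM in WT cerebellum (SD, n = 4 each), and 5.92 ± 2.08 CPM in cKO striatum and 15.2 ± 1.19 CPM in WT striatum (SD, n = 3 each). In edgeR's quasi-likelihood test it passed in cerebellum (adjusted p = 0.0488) and not in striatum (adjusted p = 0.0562). The striatal dopamine receptor gene Drd2 was at most 1.72 CPM in a cerebellar library and at least 185 CPM in a striatal one, while the granule cell gene Gabra6 had no count in striatum and at least 720 CPM in cerebellum. The dissections therefore carried their defining markers.

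The promoter windows of Cacna1i, Cacna1e and Cacna1b are shown, the members lower in cKO cerebellum to which RefSeq gives a single start, each running from 250 bases before to 50 bases after the start (GRCm38.p6, written 5′ to 3′ on the gene's strand). Capitals mark TNNGGCA, a core written after the GGCA-containing sequence that THAP1 is known to bind, searched on both strands with no other motif.
Cacna1i, chr15:80286988-80287287, plus strand: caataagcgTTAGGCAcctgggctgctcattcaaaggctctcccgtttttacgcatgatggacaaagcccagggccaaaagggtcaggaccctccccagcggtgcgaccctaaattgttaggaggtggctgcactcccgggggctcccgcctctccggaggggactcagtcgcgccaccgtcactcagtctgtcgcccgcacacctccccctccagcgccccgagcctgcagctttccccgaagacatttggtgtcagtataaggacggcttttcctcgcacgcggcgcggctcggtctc
Cacna1e, chr1:154725871-154726170, minus strand: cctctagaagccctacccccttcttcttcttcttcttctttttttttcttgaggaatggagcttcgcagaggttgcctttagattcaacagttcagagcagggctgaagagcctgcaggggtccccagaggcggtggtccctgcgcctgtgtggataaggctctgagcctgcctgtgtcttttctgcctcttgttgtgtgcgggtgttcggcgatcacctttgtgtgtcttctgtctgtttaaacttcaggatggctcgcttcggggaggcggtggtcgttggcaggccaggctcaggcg
Cacna1b, chr2:24763103-24763402, minus strand: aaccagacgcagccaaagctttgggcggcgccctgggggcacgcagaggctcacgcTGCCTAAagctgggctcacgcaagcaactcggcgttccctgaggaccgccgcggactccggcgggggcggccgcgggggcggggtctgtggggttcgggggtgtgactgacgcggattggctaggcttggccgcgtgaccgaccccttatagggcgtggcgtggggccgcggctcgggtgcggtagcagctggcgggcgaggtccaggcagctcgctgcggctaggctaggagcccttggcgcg
The Cacna1i window held 1 match, with its first base 241 bases before the start, and the Cacna1b window held 1 match on the opposite strand, 194 bases before the start. The Cacna1e window held 0 matches. This RefSeq start lies inside the span that GENCODE gives Cacna1e, whose 5′ end on the minus strand is at 154884501. The values of the Cacna1e window therefore describe the RefSeq start alone, and the GENCODE 5′ end was not examined. Of the 3 windows of Cacna1c, 2 held 1 match each, and the 2 windows of Cacna1d held none. Among all 32851 windows of this length, 40.0% held the core, so a match is a description of the sequence and not a binding site. The GC content was 62.7% in the Cacna1i window, 55.3% in the Cacna1e window and 72.3% in the Cacna1b window, against a median of 52.7% over all windows. The CpG counts were 23, 11 and 35 in the same order, against a median of 7.

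In cerebellum, the alpha-1 genes were mostly lower in cKO than in WT, and the size of the difference varied widely between members. Cacna1e stood at 63.2% of WT and Cacna1c at 78.2%, and both fell, as did Cacna1b and Cacna1d by smaller amounts. Cacna1g, the T-type gene with the highest cerebellar level, stood at 102% of WT and did not pass. Among the 7 members other than Cacna1i, 4 were called lower and none higher at a Benjamini-Hochberg adjusted p under 0.05 in edgeR's quasi-likelihood test. With all 14 samples in 1 model only Cacna1e was called, and the adjusted p was 0.135 for Cacna1b, 0.0507 for Cacna1c and 0.149 for Cacna1d. Over all 14775 genes tested, 7.59% were called, 4.96% as lower and 2.63% as higher. The median log2 fold change of those 7 members was -0.23, against 0.00 over all genes tested, and 6 of the 7 lay below 0. All 8 members passed the filter on low counts in every comparison.

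**Figure D1:**
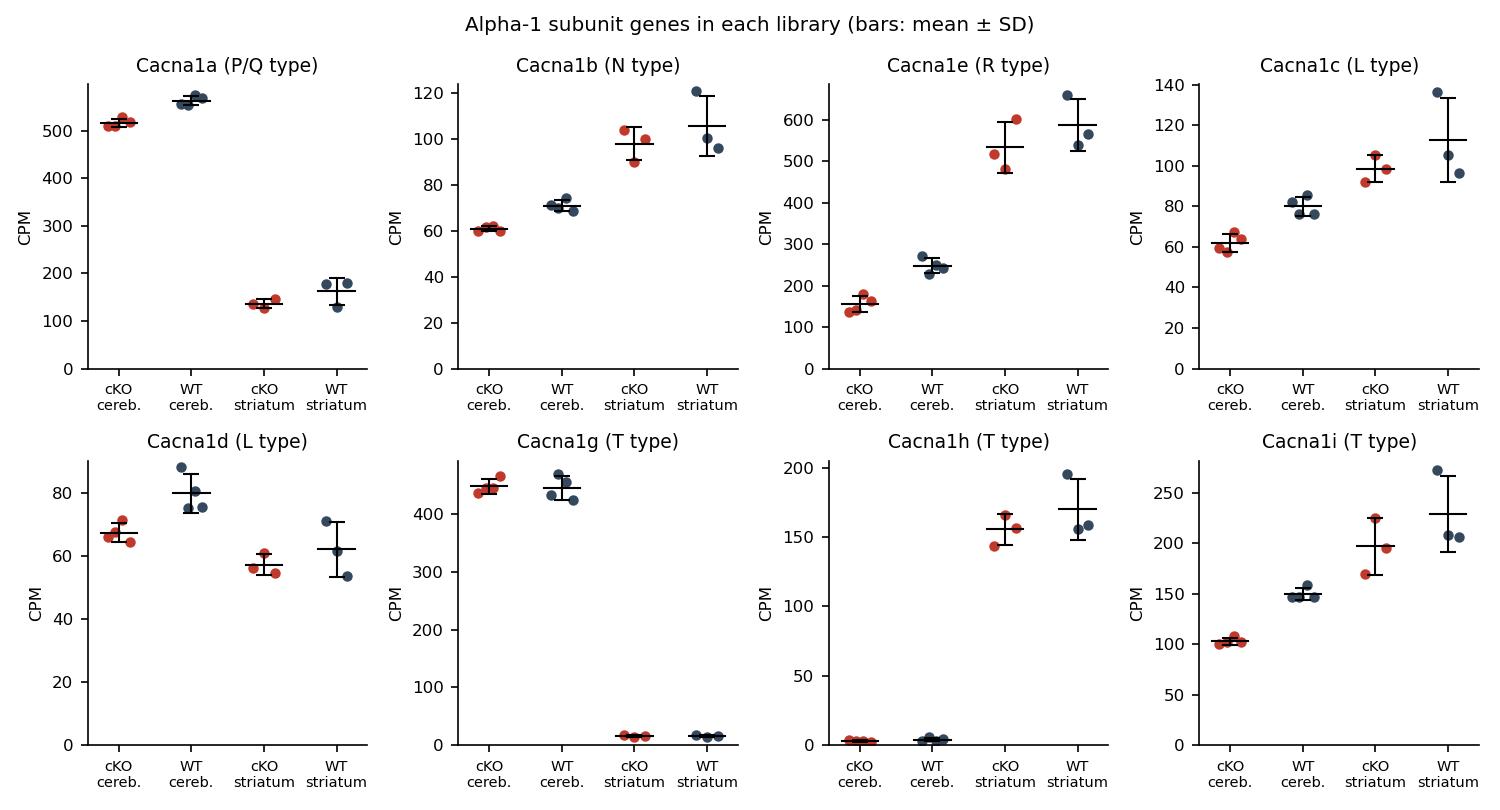
CPM (vertical axis, from 0) of each alpha-1 gene in every library, with 1 panel per gene, cKO left of WT within each tissue, points for libraries and bars for the mean ± SD. In cerebellum the cKO points lie below all WT points for 5 of the 7 genes other than Cacna1i, and Cacna1g and Cacna1h overlap. Over all genes tested in cerebellum, 14.4% did not overlap. The cKO points of Cacna1i, which led to the choice of the family, also lie below its WT points. In striatum all 8 genes overlap, while 15.0% of all genes tested did not.

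Among the presynaptic types, Cacna1e, which encodes the R-type pore, had 137, 142, 181 and 162 CPM in cKO cerebellum, against 271, 228, 249 and 243 CPM in WT cerebellum. Every cKO library lay below every WT library. The log2 fold change was -0.66 (SE 0.0966, 95% interval -0.89 to -0.43, adjusted p = 0.00728), the largest in size among the 7 tested members. Pairing libraries by replicate number, cKO stood at 50.5% to 72.5% of WT, the broadest spread of ratios among the 6 members whose ranges did not overlap.

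Cacna1b, which encodes the N-type pore of many presynaptic terminals, had 59.8, 61.5, 62.2 and 59.9 CPM in cKO cerebellum, against 71.2, 70.0, 74.2 and 68.4 CPM in WT cerebellum. The groups did not overlap, and both were tight. Its log2 fold change of -0.21 passed (SE 0.0389, adjusted p = 0.00306), and cKO stood at 86.5% of WT.

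Cacna1a, the P/Q-type gene, had 509, 510, 528 and 519 CPM in cKO cerebellum, against 556, 554, 574 and 568 CPM in WT cerebellum. The cKO libraries again lay below the WT libraries without overlap, but by a small margin. Its log2 fold change of -0.11 (SE 0.0370, 95% interval -0.19 to -0.03) did not pass (adjusted p = 0.0780). With DESeq2 in place of edgeR the adjusted p was 0.000963, with sex as a covariate it was 0.0372, and with all 14 samples in 1 model it was 0.616. Cacna1a lies on chromosome 8, 58.2 Mb from Thap1.

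Both L-type genes fell in cKO cerebellum. Cacna1c, the main L-type pore of brain and heart, had 59.3, 57.6, 67.4 and 63.7 CPM in cKO cerebellum, against 82.3, 76.3, 85.6 and 76.1 CPM in WT cerebellum. No cKO library reached the lowest WT library. The log2 fold change was -0.35 (SE 0.0527, 95% interval -0.47 to -0.24, adjusted p = 0.000549).

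Cacna1d, whose L-type channel opens at more negative potentials, had 66.0, 67.6, 71.2 and 64.3 CPM in cKO cerebellum, against 88.2, 75.1, 80.4 and 75.3 CPM in WT cerebellum. The highest cKO library lay just under the lowest WT library. The log2 fold change of -0.23 passed as well (SE 0.0518, adjusted p = 0.0113). An exon of Cacna1d overlaps the choline dehydrogenase gene Chdh on the other strand, which had 112 to 206 counts in cKO cerebellum and 156 to 217 in WT cerebellum. Since no source used here gives the strand setting of the counting, reads of the pair cannot be told apart there.

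Among the T-type genes, neither Cacna1g nor Cacna1h passed the test. Cacna1i, the member that led to the choice of the family, had 99.8, 102, 108 and 102 CPM in cKO cerebellum, against 146, 147, 158 and 147 CPM in WT cerebellum. Every cKO library lay below every WT library. Its log2 fold change was -0.53 (SE 0.0359), and the ratio stayed between 68.0% and 69.6% in all 4 same-numbered pairs.

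Cacna1g, the T-type gene of Purkinje cells and deep nuclear neurons, had 436, 446, 445 and 467 CPM in cKO cerebellum, against 433, 469, 455 and 424 CPM in WT cerebellum. The cKO range lay inside the WT range. The log2 fold change was 0.02 (SE 0.0414, 95% interval -0.06 to 0.11, adjusted p = 0.805).

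Cacna1h, the third T-type gene, was low in cerebellum, with 3.90, 2.97, 2.93 and 2.51 CPM in cKO cerebellum and 2.97, 5.60, 3.00 and 3.99 CPM in WT cerebellum. The groups overlapped, and these levels rest on 68 to 83 counts per cKO library and 62 to 114 per WT library. Its log2 fold change of -0.33 had an interval of -0.78 to 0.11 (adjusted p = 0.372). An exon of Cacna1h overlaps the tryptase gene Tpsg1 on the other strand, which had at most 2 counts in any library.

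The ranges of cKO and WT cerebellum did not overlap for 5 of the 7 members other than Cacna1i, cKO being lower in each, whereas 14.4% of all genes tested had ranges that did not overlap. Alpha-1 genes have long transcripts. Among the 1512 other genes tested whose exons span at least as much as those of the shortest member (9763 bases), the median log2 fold change in cerebellum was -0.00, and 7.34% were called lower. With the trend of expression with exon length removed from each library, the same 4 members were called.

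**Figure D2:**
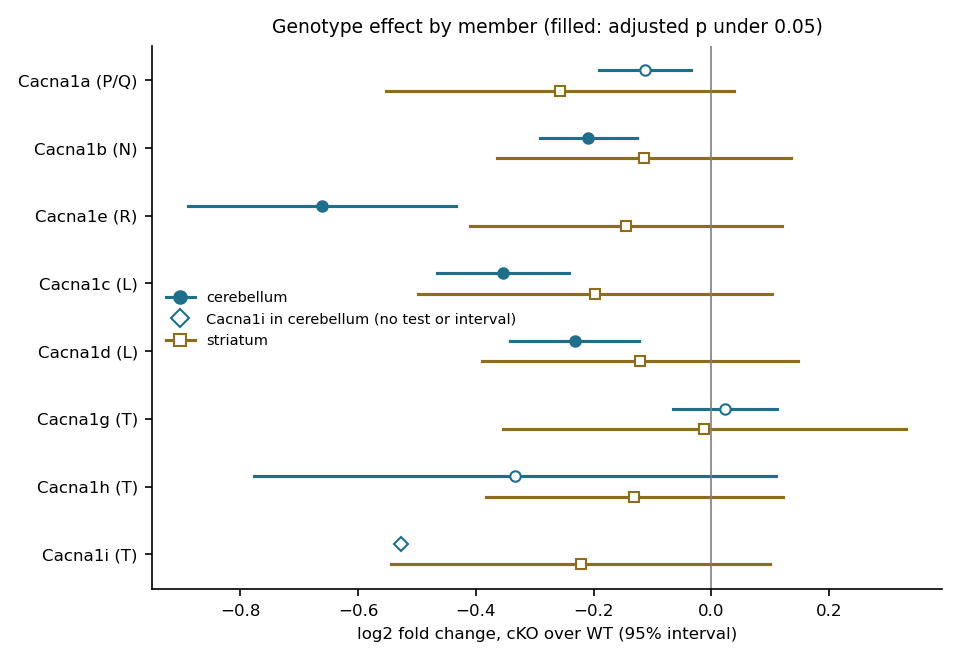
Log2 fold change of cKO over WT with its 95% interval (horizontal axis) for each alpha-1 gene (vertical axis), with cerebellum above striatum for each gene, filled symbols for genes called and a diamond without an interval for the untested cerebellar value of Cacna1i. The cerebellar estimates run from -0.66 for Cacna1e to 0.02 for Cacna1g, and all 8 striatal intervals include 0.

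Markers of cell types are given beside these differences, where 4.96% of all genes tested were called lower and 2.63% higher. In cerebellum, 3 of 12 granule cell markers were called lower (Fat2, Reln and Grin2c). Of the 12, 10 had estimates below 0 and 2 above it, and Gabra6 stood at 100% of WT. The summed level of that list was 7290 to 7697 CPM in cKO and 7631 to 8632 CPM in WT. Of 12 Purkinje cell markers 1 was called higher, Itpr1, a gene also in the list of calcium stores, with sums of 13417 to 14614 CPM in cKO and 12821 to 13507 CPM in WT. Of 15 oligodendrocyte and myelin genes 9 were called lower, with sums of 4894 to 5428 CPM in cKO and 5609 to 6180 CPM in WT. Of 10 molecular layer interneuron and Golgi cell markers 1 was called higher and 1 lower, with sums of 620 to 644 CPM in cKO and 635 to 708 CPM in WT. Of 10 astrocyte markers 3 were called higher (Gfap, Aqp4 and Gja1) and 2 lower (S100b and Slc1a3). The sums of that list were 6298 to 6979 CPM in cKO and 6361 to 6737 CPM in WT. Of 6 deep nuclear markers 1 was called higher, with sums of 236 to 270 CPM in cKO and 199 to 276 CPM in WT, and of 6 unipolar brush cell markers none was called, with sums of 894 to 961 CPM in cKO and 904 to 961 CPM in WT. The 7 choroid plexus and ependymal genes, none called, summed to 704 to 3342 CPM in cKO and 42.1 to 2064 CPM in WT. Estimates above and below 0 numbered 12 and 0 for Purkinje cells, 6 and 0 for deep nuclei and 5 and 1 for unipolar brush cells. They numbered 0 and 15 for myelin and 4 and 6 for molecular layer interneurons and Golgi cells. For astrocytes they numbered 5 and 5, and for choroid plexus and ependyma 7 and 0. No gene of these lists was at 0 in a whole cerebellar group, and the part of the cell types in the alpha-1 values was not tested.

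In striatum, all 8 alpha-1 genes had log2 fold changes below 0 and none passed the test. With the trend of expression with exon length removed, the estimates were 0.05 for Cacna1e and 0.07 for Cacna1g. The median of the 8 was -0.14, against 0.00 over all genes tested. Of 14080 genes tested, 0.384% were called by edgeR's quasi-likelihood test, and 1020 (7.24%) had an unadjusted p under 0.05. None of the 8 members had an unadjusted p under 0.05, and DESeq2 called none of them either. The cKO and WT ranges overlapped for all 8 members, while 15.0% of all genes tested did not overlap.

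Cacna1e had 517, 480 and 601 CPM in cKO striatum, against 659, 538 and 566 CPM in WT striatum. The highest cKO library lay above the lower WT libraries. Its log2 fold change was -0.14 (adjusted p = 0.788). Cacna1a had 136, 127 and 146 CPM in cKO striatum, against 178, 130 and 179 CPM in WT striatum. WT replicate 2 fell within the cKO range. The striatal log2 fold change was the lowest of the 8 here, at -0.26 (SE 0.131, 95% interval -0.55 to 0.04, adjusted p = 0.734).

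Cacna1i had 170, 225 and 195 CPM in cKO striatum, against 273, 208 and 206 CPM in WT striatum. WT replicate 1 lay above every cKO library, and the other WT libraries lay within the cKO range. The log2 fold change was -0.22 (SE 0.142, 95% interval -0.54 to 0.10, adjusted p = 0.778). Cacna1h, prominent in striatum, had 144, 166 and 156 CPM in cKO striatum, against 195, 156 and 158 CPM in WT striatum. Again only WT replicate 1 lay above the cKO libraries (log2 fold change -0.13, adjusted p = 0.796).

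For the L- and N-type genes WT replicate 1 also lay above every cKO library. For Cacna1c and Cacna1d WT replicate 2 did so too, by a small margin. Cacna1c had 91.9, 105 and 98.6 CPM in cKO striatum, against 136, 105 and 96.5 CPM in WT striatum (log2 fold change -0.20, adjusted p = 0.778). Cacna1d had 56.1, 60.8 and 54.4 CPM in cKO striatum, against 70.8, 61.5 and 53.6 CPM in WT striatum (log2 fold change -0.12, adjusted p = 0.816). Its antisense neighbour Chdh had 63 to 75 counts in cKO striatum and 105 to 170 in WT striatum. The bearing of Chdh transcripts on the Cacna1d counts was not tested. Cacna1b had 104, 89.9 and 99.8 CPM in cKO striatum, against 121, 101 and 95.9 CPM in WT striatum (log2 fold change -0.11, adjusted p = 0.815). In each of the 3 genes WT replicate 1 was the highest library. Cacna1g was low in both genotypes, with 18.1, 13.5 and 15.9 CPM in cKO striatum and 17.5, 14.03 and 16.4 CPM in WT striatum (log2 fold change -0.01, adjusted p = 0.986).

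WT replicate 1 was the highest of the 6 striatal libraries for 6 of the 8 members. Leaving it out brought the striatal log2 fold changes to -0.18 for Cacna1a, -0.07 for Cacna1i, -0.05 for Cacna1e, -0.03 for Cacna1c, -0.01 for Cacna1h and Cacna1d, -0.00 for Cacna1b and 0.07 for Cacna1g, and the genes called over the whole table to 122, against 54 with it. This library read as the male of its group by Xist and Y-linked counts, and cKO replicate 1 read as the male of the cKO group, so a fit without either of them leaves the sexes unequal. The 1511 other genes tested whose exons span at least 9763 bases had a median log2 fold change of -0.11 in striatum. The median of the 8 members was -0.14. The fit with the exon length trend removed gave 0.05 for Cacna1e and 0.07 for Cacna1g. For the other members, the highest estimates over all settings that kept every library, that fit among them, were as follows. They were -0.16 for Cacna1a, -0.13 for Cacna1i, -0.05 for Cacna1h, -0.03 for Cacna1b, -0.02 for Cacna1c and -0.01 for Cacna1d. Beyond that fit, the part of exon length in the median was not tested. In striatum, 6 of 15 myelin genes were called lower, where 0.384% of all genes were called. Their sums were 5507 to 6795 CPM in cKO and 8556 to 10465 CPM in WT. None of 13 projection neuron markers was called, with sums of 11514 to 13598 CPM in cKO and 12768 to 14160 CPM in WT. Sums were higher in cKO without overlap for 9 interneuron markers (449 to 474 against 367 to 435 CPM). The same held for 7 choroid plexus and ependymal genes (84.9 to 232 against 68.3 to 78.8 CPM). Single interneuron markers were mixed, with 6 estimates above 0, 3 below and a median of 0.02. Estimates above and below 0 numbered 6 and 0 for choroid plexus and ependyma, and 3 and 10 for projection neuron markers. The sums of 10 astrocyte markers overlapped (6472 to 6923 CPM in cKO, 6001 to 6851 CPM in WT). Of these markers 8 had estimates above 0 and 2 below. Gfap stood at 298% of WT (adjusted p = 0.0593 in edgeR's quasi-likelihood test). No interneuron, astrocyte, choroid plexus or ependymal gene was called. The part of these cell types in the striatal values was not tested.

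The difference between the tissues was tested directly, by taking the striatal log2 fold change from the cerebellar one in 1 model of all 14 samples. Over all genes 0.390% were called, and 1793 of 15401 (11.6%) had an unadjusted p under 0.05. Of the 7 members other than Cacna1i, none was called. Cacna1e had the widest difference, -0.53 (SE 0.145, 95% interval -0.84 to -0.22, adjusted p = 0.143), and DESeq2 gave an adjusted p of 0.0668. It passed with the length trend removed, at -0.66 (adjusted p = 0.0136). The other 6 tested members had differences from -0.22 for Cacna1h to 0.13 for Cacna1a, with adjusted p from 0.659 to 0.979. For Cacna1i the difference was -0.32 (SE 0.137), given as a description. The alpha-1 decreases measured in cerebellum are thus not shown to be particular to that tissue.

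The comparison of WT cerebellum with WT striatum gave by far the widest differences within the family. All 7 members other than Cacna1i were called, 3 higher and 4 lower in cerebellum, as were 64.2% of all genes tested (32.7% higher and 31.5% lower). No source used here gives a batch, so tissue and the making of the libraries cannot be told apart. Cacna1g averaged 445 ± 20.6 CPM in WT cerebellum (SD, n = 4) and 16.0 ± 1.78 CPM in WT striatum (SD, n = 3), a log2 difference of 4.80 (SE 0.103, adjusted p = 6.40e-10). Cacna1h had the opposite distribution, with 3.89 ± 1.24 CPM in WT cerebellum and 170 ± 21.9 CPM in WT striatum, a log2 difference of -5.46 (SE 0.199, adjusted p = 1.93e-08). Each of these T-type genes was thus high in 1 tissue and low in the other, while Cacna1i was well above both low levels in either tissue.

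Cacna1i averaged 150 ± 5.84 CPM in WT cerebellum and 229 ± 38.0 CPM in WT striatum, a log2 difference of -0.62 (SE 0.106), given as a description. Cacna1a averaged 563 ± 9.84 CPM in WT cerebellum and 162 ± 28.2 CPM in WT striatum (log2 difference 1.79, adjusted p = 6.58e-07). Cacna1e was lower in cerebellum, at 248 ± 17.8 CPM in WT cerebellum and 588 ± 62.9 CPM in WT striatum (log2 difference -1.25, adjusted p = 1.88e-06). Cacna1b and Cacna1c were also lower in cerebellum, by -0.58 and -0.50 on the log2 scale. Cacna1d was higher, by 0.36 (SE 0.107, adjusted p = 0.0151), but did not pass without WT striatum replicate 3 (adjusted p = 0.0557).

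Levels were compared between genes as CPM per kb of exon. In cKO cerebellum the order ran from Cacna1a (45.2 CPM per kb) and Cacna1g (44.2) through Cacna1i (10.4), Cacna1e (6.16), Cacna1b (6.12), Cacna1d (5.33) and Cacna1c (2.93) to Cacna1h (0.315). The ranges of Cacna1a and Cacna1g overlapped there, as did those of Cacna1e and Cacna1b. In WT cerebellum the order was the same, at 49.3 CPM per kb for Cacna1a, 43.9 for Cacna1g, 15.2 for Cacna1i, 9.83 for Cacna1e, 7.14 for Cacna1b, 6.32 for Cacna1d, 3.78 for Cacna1c and 0.398 for Cacna1h, and only Cacna1b and Cacna1d had overlapping ranges among neighbours in that order. The order depends on the length used. With the longest annotated transcript in place of all exons, Cacna1a (65.1 CPM per kb) and Cacna1g (53.5) did not overlap in cKO cerebellum, while Cacna1i (10.5) and Cacna1e (10.4) did. With that length Cacna1e (16.6 CPM per kb) stood above Cacna1i (15.3) in WT cerebellum, with overlapping ranges, and Cacna1d stood above Cacna1b in both genotypes.

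In striatum both genotypes also shared 1 order. In cKO striatum Cacna1e (21.1 CPM per kb) and Cacna1i (19.9) led with overlapping ranges, followed by Cacna1h (15.9), Cacna1a (11.9), Cacna1b (9.84), Cacna1c (4.65), Cacna1d (4.52) and Cacna1g (1.56). In WT striatum Cacna1e (23.3 CPM per kb) and Cacna1i (23.2) again overlapped, followed by Cacna1h (17.4), Cacna1a (14.2), Cacna1b (10.6), Cacna1c (5.32), Cacna1d (4.91) and Cacna1g (1.58). Cacna1c and Cacna1d overlapped in both genotypes, and Cacna1a and Cacna1b overlapped in WT striatum alone. With the longest transcript as length the order was the same, but Cacna1e stood apart from Cacna1i, at 35.7 against 20.1 CPM per kb in cKO striatum and 39.4 against 23.4 CPM per kb in WT striatum. Cacna1h then overlapped with both Cacna1i and Cacna1a in either genotype, Cacna1a and Cacna1b no longer overlapped, and Cacna1c overlapped with Cacna1b and Cacna1d in WT striatum alone.

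**Figure D3:**
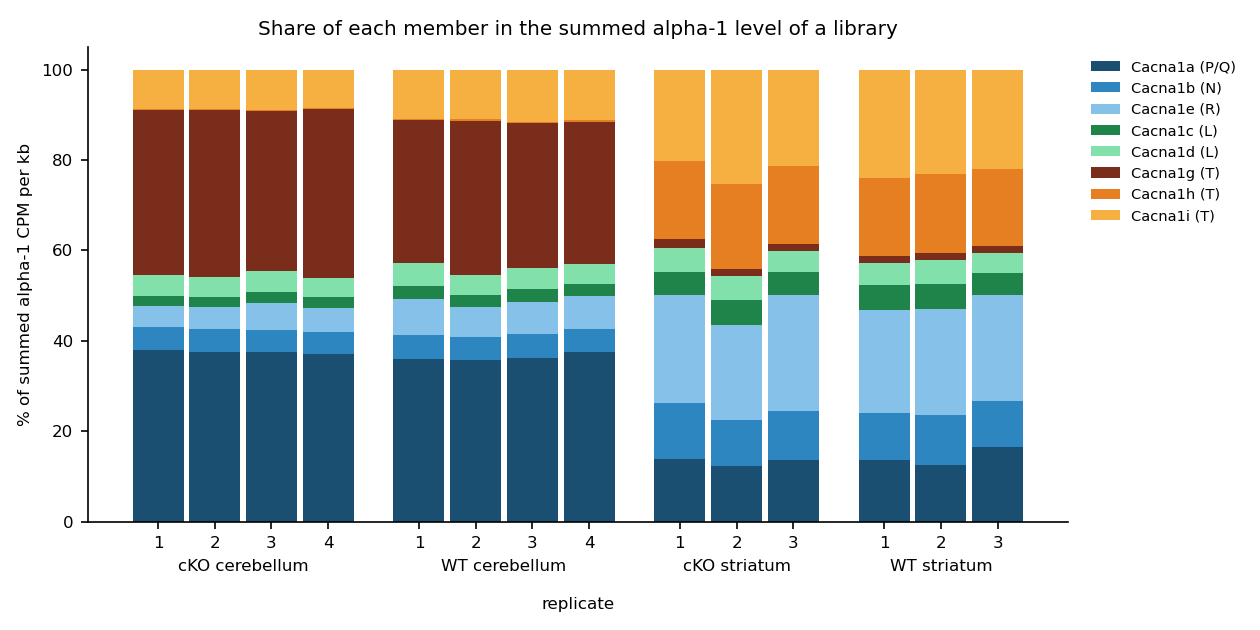
Share of each alpha-1 gene in the summed CPM per kb of the 8 genes (vertical axis, %), with 1 stacked bar per library and cKO left of WT within each tissue. In cerebellum Cacna1a and Cacna1g make up most of every bar, in striatum Cacna1e, Cacna1i and Cacna1h do, and the Cacna1i segment is narrower in every cKO than in every WT cerebellar bar.

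The summed level of the 8 members was 121 ± 2.86 CPM per kb in cKO cerebellum and 136 ± 2.62 in WT cerebellum (SD, n = 4 each), and 89.5 ± 3.90 in cKO striatum and 101 ± 12.9 in WT striatum (SD, n = 3 each). The T-type genes together held 45.5% ± 0.686 of the sum in cKO cerebellum and 43.8% ± 1.23 in WT cerebellum, and 41.8% ± 3.37 in cKO striatum and 41.9% ± 1.13 in WT striatum. The ranges of that share overlapped between the genotypes in both tissues, while single T-type genes differed in theirs. Cacna1i held 8.43% to 8.83% of the sum in cKO cerebellum and 11.0% to 11.5% in WT cerebellum, without overlap. Cacna1g held 35.5% to 37.6% in cKO cerebellum and 31.4% to 34.1% in WT cerebellum, and its CPM overlapped between the genotypes. Cacna1e held 5.09% ± 0.541 in cKO cerebellum and 7.24% ± 0.534 in WT cerebellum. Shares of a sum are linked, so a share can move because another member did.

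The auxiliary subunits that assemble with the alpha-1 pores gave no call in either tissue. In cerebellum none of 4 alpha-2-delta genes was called, with log2 fold changes of 0.06 for Cacna2d2 (adjusted p = 0.489) and 0.05 for Cacna2d1 (adjusted p = 0.518), and a median of 0.05. None of 4 beta subunit genes was called, with -0.08 for Cacnb4 (adjusted p = 0.329), 0.08 for Cacnb2 (adjusted p = 0.387) and a median of -0.02. None of the 6 tested genes, of 8, for gamma subunits and the related AMPA receptor regulators was called, with -0.06 for Cacng7 (adjusted p = 0.330), -0.01 for Cacng2 (adjusted p = 0.847) and a median of -0.06. Of the other alpha-1 genes, Cacna1f had 0 to 13 counts in a library and Cacna1s 10 to 50, while the sodium leak channel gene Nalcn averaged 167 ± 4.97 CPM in cKO cerebellum and 162 ± 7.11 CPM in WT cerebellum. None of the 2 that were tested in this list was called.

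Of 17 active zone genes, which encode the release machinery that presynaptic calcium channels sit beside, 3 were called lower and 1 higher in cerebellum, with a median log2 fold change of -0.03. The scaffold genes Erc1 (-0.19, adjusted p = 0.00512), Bsn (-0.21, adjusted p = 0.00668) and Pclo (-0.18, adjusted p = 0.0200) fell, and the vesicle priming gene Unc13b rose (0.27, adjusted p = 0.0310). Pclo lost its call without cKO replicate 1, 2 or 4 or WT replicate 3 or 4 (adjusted p from 0.0519 to 0.0772), and Unc13b without cKO replicate 1 or 3 or WT replicate 3 or 4 (0.0629 to 0.109). Of 11 genes of calcium sensors and kinases, only Stac2, whose product binds L-type channels, was called (-0.29, adjusted p = 0.00585). The median of that list was 0.02. Over all genes tested in cerebellum, 4.96% were called lower and 2.63% higher.

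Of 19 genes of calcium stores and clearance, 4 were called lower and 1 higher in cerebellum, with a median of -0.02. The shares over all genes tested there were 4.96% lower and 2.63% higher. The plasma membrane calcium pump gene Atp2b4 (-0.73, adjusted p = 1.07e-05) and the inositol trisphosphate receptor gene Itpr3 (-0.71, adjusted p = 9.62e-05) fell, with estimates beside the -0.66 of Cacna1e. The sodium-calcium exchanger gene Slc8a2 also fell (-0.29, adjusted p = 0.0188), and Itpr1, the receptor of Purkinje cells, rose (0.15, adjusted p = 0.00834). The call of Slc8a2 was lost when cKO replicate 3 or WT replicate 2 or 4 was left out (adjusted p from 0.0550 to 0.0589), and that of Itpr1 when cKO replicate 2 was (0.0544). Of 7 tested calcium-activated potassium channel genes, Kcnn1 (0.31, adjusted p = 0.0435, and 0.0753 with the replicate number as a block) and Kcnma1 (0.13, adjusted p = 0.0494) were called higher and none lower, with a median of 0.13. Kcnn1 lost its call without cKO replicate 1, 2 or 4 or WT replicate 1, 2 or 3 (adjusted p from 0.0686 to 0.131), and Kcnma1 without cKO replicate 2, 3 or 4 or WT replicate 1, 3 or 4 (0.0917 to 0.163). The adjusted p was also 0.0661 for Kcnn1 with DESeq2 and 0.0511 for Kcnma1 with sex as a covariate.

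Among 9 tested voltage-gated sodium channel genes, Scn1a was called higher (0.17, adjusted p = 0.0211) and none lower, with a median of -0.00. The Scn1a call was lost when cKO replicate 2, 3 or 4 or WT replicate 3 was left out (adjusted p from 0.0521 to 0.0738). None of the 4 HCN pacemaker channel genes was called, with a median of 0.07. The median over all genes tested in cerebellum was 0.00, and 4.96% of them were called lower and 2.63% higher. In striatum 0 genes of any of these lists were called.

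**Figure D4:**
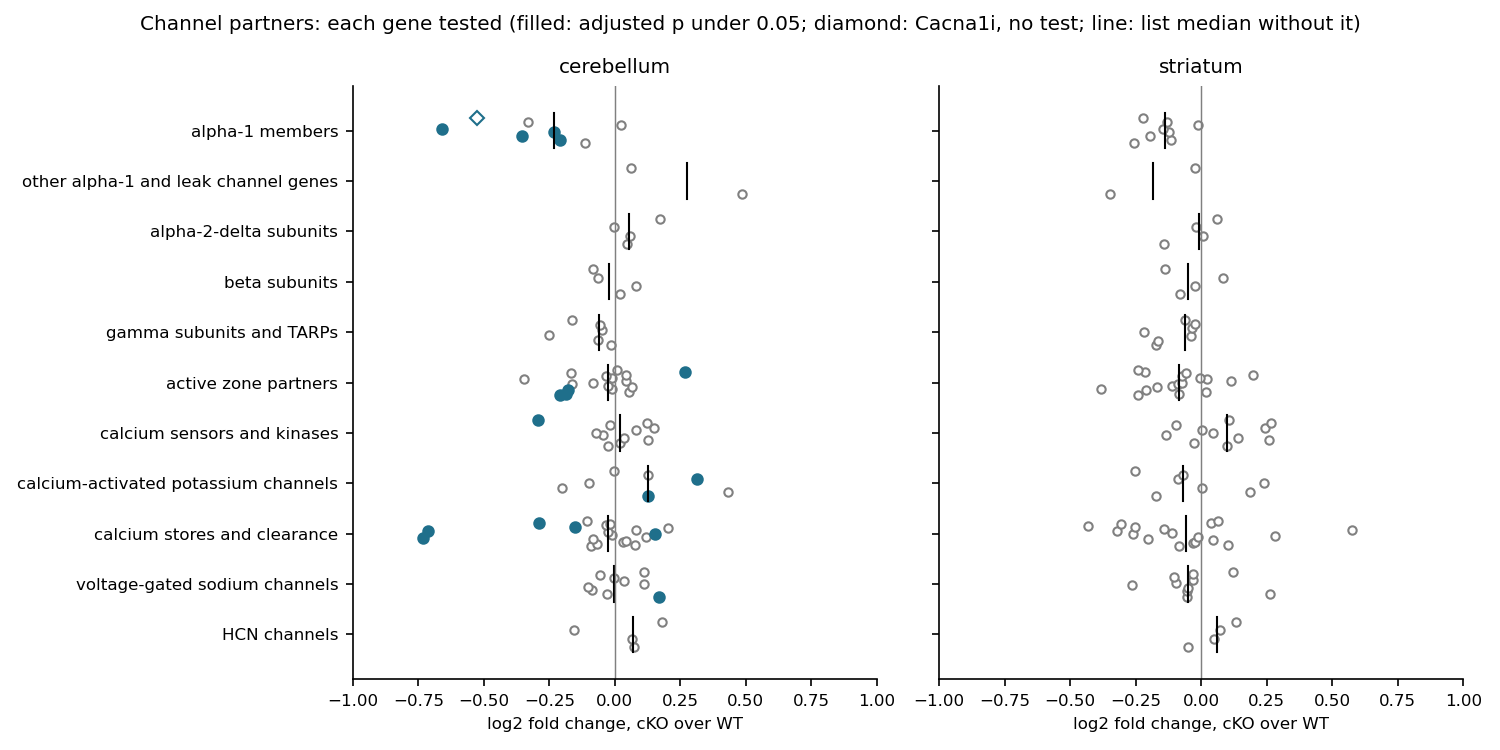
Log2 fold change of cKO over WT (horizontal axis) of every tested gene in each list (vertical axis), in cerebellum (left) and striatum (right), with filled points for genes called, a diamond for the untested cerebellar value of Cacna1i and a line at the list's median. In cerebellum the alpha-1 median of -0.23 without Cacna1i lies left of the alpha-2-delta (0.05) and beta (-0.02) medians, and in striatum no point is filled.

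The genes whose profile over all 14 samples was most like that of a member were found by the root mean squared difference of centred log2 CPM, among 11017 genes with a mean of at least 5 CPM. Cacna1b was closest to Zfp236 (0.0589) and Celf1, and Cacna1d to Pgm2l1 (0.0672), Pkd1 and Mapt. Cacna1c was closest to Med13l (0.0907), Nhsl2 and Dusp3, and Cacna1a to Nfia (0.0945), Stat2 and Agxt2l2. Over all 14 samples these distances reflect mainly the contrast of the tissues. Cacna1g was closest to Col18a1 (0.130), Cep76 and Shisa6, and Cacna1h to Grm5 (0.179), Ptk2b and Mal2, both with larger distances. Cacna1i was closest to Rnf144a (0.154), Acap3 and Lphn1, and Cacna1e to Jph4 (0.184), Dio2 and Mpp2. Over the 8 cerebellar samples alone, Cacna1i was closest to Nat15 (0.0505), Wipf3, Pcdhgb7, Plxnd1 and Plk5 (0.0727). There its profile is mainly the genotype difference that led to the choice of the family, so these genes are given as a description.

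The members lie on 8 chromosomes (mm10, GENCODE vM21). Cacna1a spans chr8:84388440-84640246 on the plus strand and overlaps an antisense gene that is not among the counted rows. Cacna1b spans chr2:24603887-24763152, Cacna1c chr6:118587240-119196418, Cacna1d chr14:30039939-30491455, Cacna1e chr1:154390731-154884501, Cacna1g chr11:94408391-94474198 and Cacna1h chr17:25374285-25433783, all on the minus strand. Cacna1i spans chr15:80287238-80398279 on the plus strand. Their exons sum to between 9.76 kb for Cacna1h and 25.2 kb for Cacna1e. Apart from Cacna1a, the members lie on other chromosomes than Thap1.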

How the data were processed

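RNA was sequenced from 8 cerebellar and 6 striatal mouse samples. For each of them the authors deposited raw counts by gene symbol. The submitters' processing notes name HTSeq 0.6.1p1, STAR, cutadapt 1.13 and DESeq2, and build mm10. Not given in the sources used here are the order of these steps, the annotation and the strand setting.

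Counts were fitted across all genes with edgeR 4.0.16 (R 4.3.3), using TMM factors, filterByExpr (minimum count 10, minimum total 15) and the robust quasi-likelihood test with Benjamini-Hochberg adjustment. Each tissue was fitted alone, WT tissues were compared with each other, and the interaction used all 14 samples. Standard errors are the size of the log2 fold change over the root of F, and intervals are at 95%. Levels are CPM, and CPM per kb uses the union of GENCODE vM21 exons (GRCm38, called mm10). Of the symbols, 89.8% matched directly, 8.23% by synonym and 1.99% not at all. Promoter windows are from RefSeq (GRCm38.p6), where 5 of the 8 members matched. Likeness used log2 CPM with a prior count of 2. The fits were tested on simulated counts. Settings tried were DESeq2's size factors, no low-count filter, DESeq2 1.42.0, a replicate block, sex as a covariate, removal of the length trend, all samples in 1 model, each sample left out and, for levels, the longest transcript as length.

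The members, lists and naming rule were chosen with earlier results of these data known. The rule names all 8 members, up to 4 called genes per pathway list by smallest p, or at most 2 with the highest level where none was called, and the 3 genes most like each member, of which 1 is not reported here. No source used here ties replicates to separate animals, and p-values therefore cover only the spread among these libraries, which may be technical. Same-numbered libraries of the genotypes deviated together, by correlations of 0.287, 0.172 and 0.108 in striatum and 0.389, 0.205, 0.117 and 0.281 in cerebellum, each above 0.1. The numbers were taken as pairing the genotypes only for the ratios and the replicate block, and the main fits used no pairing. In cerebellum, however, 3 of 4 cKO libraries correlated more with a WT library of another number (cKO 1 with WT 2 at 0.446, cKO 3 with WT 4 at 0.318 and cKO 4 with WT 3 at 0.474). This pairing comes from the data, and same-numbered libraries also share the sex read from Xist and Y-linked counts. Between tissues 1 such correlation was -0.154 in WT, and the tissues were not paired. No sample was left out.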

Additional observations from a re-analysis of the deposited data

Results flagged for a closer look

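Of 16 groups of 4 cerebellar libraries screened, 1 had a library far from the others by Dixon's criterion, and chance flags about 1 in 20 groups. Cacna1i had 158 CPM in WT cerebellum replicate 3, against 146 to 147 CPM in the other WT cerebellar libraries. In cKO cerebellum the same replicate number was also the highest, at 108 CPM, and the log2 fold change of Cacna1i without any single cerebellar library stayed between -0.55 and -0.50.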

How the results depend on the processing

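The count of 4 called members in cerebellum was also 4 without any single library and with the other normalisation, no filter, the replicate block and the length trend removed. It was 1 (Cacna1e) with all 14 samples in 1 model, where the adjusted p was 0.135 for Cacna1b, 0.0507 for Cacna1c and 0.149 for Cacna1d, and 5 with DESeq2 or sex as a covariate, which added Cacna1a. The count over all genes was 251 in that model, against 1121, and of the 12 named pathway genes called in cerebellum only Itpr3 passed in it. In striatum the count of members was 0 in every setting, while the count over all genes was 15 with the replicate block, 87 with the length trend removed, 151 with DESeq2, 376 in 1 model and 3 to 122 without single libraries, against 54. In the interaction 1 member (Cacna1e) was called with the length trend removed, and over all genes 1 was called with the replicate block, 229 with DESeq2 and 17 to 193 without single libraries, against 60. Between WT tissues 6 to 7 of the 7 tested members were called without single libraries. The block, with the replicate numbers as pairing, changed the call of no member, and Kcnn1 was the named gene that lost its call under it. Signs turned for striatal Cacna1e with the length trend removed (0.046), for striatal Cacna1g with it (0.074) and without single libraries (-0.12 to 0.088), for Cacna1g in the interaction with the block (-0.022), the length trend removed (-0.056) and single libraries left out (-0.085 to 0.15), and for cerebellar Cacng2 without WT cerebellum replicate 3 (0.0059, against a lowest value of -0.032 without another library). With the longest transcript as length, the T-type share was 40.8% in cKO cerebellum, 38.7% in WT cerebellum, 34.9% in cKO striatum and 34.8% in WT striatum. Other causes of these shifts were not tested. With 3 libraries a group, striatal intervals reach down to -0.55 on the log2 scale, and Cacna1h in cerebellum rests on at most 114 counts.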
